A study of Saccharomyces cerevisiae with 6 samples.

Results

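The aminoacyl-tRNA synthetases of budding yeast, Saccharomyces cerevisiae, were examined as a family of 33 genes among the 6256 genes with a probe on the array. The members were taken by name and found through their systematic names. Their measured values were not part of that rule, but earlier results of these data were known when they were chosen. They comprise 20 genes of the cytosolic set, which includes the cofactor ARC1 and the paralog GRS2, and 13 genes whose products work in mitochondria. Transcript levels were compared between F3, a sulfur dioxide-resistant mutant from evolutionary engineering (3 arrays), and its reference strain (3 arrays). F3 is a single selected mutant, and the labels give no genotype, ploidy or background for either strain. The series design gives minimal medium and early exponential phase for all cultures, another label names overnight growth in rich medium without saying how the steps relate, and no label names sulfite in these cultures.

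Aminoacyl-tRNA synthetases attach each amino acid to its own tRNA, and the charged tRNA is then carried to the ribosome by an elongation factor. Yeast translates in the cytosol and in the mitochondrion, and most amino acids have a separate nuclear gene for the enzyme of each compartment. A few genes serve both compartments, because alternative starts give one product with and one without a mitochondrial targeting sequence. Synthetases fall into class I and class II, which have unrelated catalytic folds. When charging fails, uncharged tRNA activates the kinase Gcn2, which raises translation of the transcription factor Gcn4.

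Each level is the log2 of a probe's processed signal minus that of the 75th percentile over the array's gene probes. A gene that "rose" or "fell" was called higher or lower in F3 on this scale. A gene was called where limma gave a Benjamini-Hochberg adjusted p below 0.05 over the 5948 genes tested. All 33 members were well above background on all 6 arrays, and none was saturated. Their processed signals lay between 495 and 83333 intensity units, against negative-control medians between 2.61 and 7.10. The F3 arrays lay on 1 slide and were scanned on one day, and the reference arrays lay on 2 slides scanned on another day, so the effects of strain and of scanning cannot be told apart. Nothing in the labels says that the 3 cultures of a strain were started separately, so p-values measure the spread between these arrays. Genes known to be induced as glucose runs out were also high in F3: 9 of the 10 listed rose, where 41.5% of all tested genes rose. The median log2 difference of the 10 was 3.40, with HXK1, GPH1 and HSP26 highest, and ADH2 was not called. The relative signals of the 10 summed to between 63.6 and 68.2 on the F3 arrays, against 1.15 to 1.47 times the percentile signal on the reference arrays, and all 10 were well above background on every array. HXK1, HSP26, GPH1, HSP12 and CTT1 dominate that sum, with mean levels between 1.49 and 4.68 in F3. ADH2, FBP1, PCK1, JEN1 and ICL1 had mean levels between -4.85 and -1.16 in F3 and add little to it. The part of these 10 genes in the synthetase differences was not tested. The arrays measure RNA of a whole culture, so a change in the cells' makeup and a change in RNA per cell cannot be told apart.

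The cytosolic synthetases were lower in F3 and most of the mitochondrial ones were not. Of the 20 cytosolic members 17 fell, 1 rose and 2 were not called, with a median log2 difference of -0.70. Of the 13 mitochondrial members 7 rose, 1 fell and 5 were not called, with a median of 0.25. Among all tested genes, 79.7% were called, 38.2% lower and 41.5% higher, with a median of 0.05. By at least 2-fold, 3 cytosolic members fell and 1 rose, and 2 mitochondrial members rose, where 32.8% of all tested genes passed that fold, 16.2% lower and 16.6% higher. The cytosolic share called lower (85%) was thus far above the 38.2% of all tested genes. The mitochondrial share called higher (53.8%) lay nearer to the 41.5% of all tested genes. The sizes were moderate for this comparison, in which differences over all genes had an SD of 1.33.

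These directions hold relative to the 75th percentile. Scaled to the spike-in RNAs instead, every difference moved up by 1.71, the median of all genes lay at 1.76, and 19 of 20 cytosolic and 13 of 13 mitochondrial members were called higher in F3, all but HTS1. The log2 spike-in mean minus the 75th percentile was -3.80, -3.86 and -3.78 on the F3 arrays. It was -2.62, -2.83 and -2.06 on the reference arrays. Spike-in scaling passes this spread to every gene alike, so its calls for different genes are not separate evidence. The order of the members and the distance between the compartments do not change with that scaling. The mean over cytosolic members minus the mean over mitochondrial members, set against its reference average, was -0.94, -1.05 and -0.77 in F3, against -0.02, 0.07 and -0.05 in the reference (log2). This is a shift of -0.92 ± 0.09 (SE, n = 3 arrays each), and the arrays of the strains did not overlap.

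**Figure D1:**
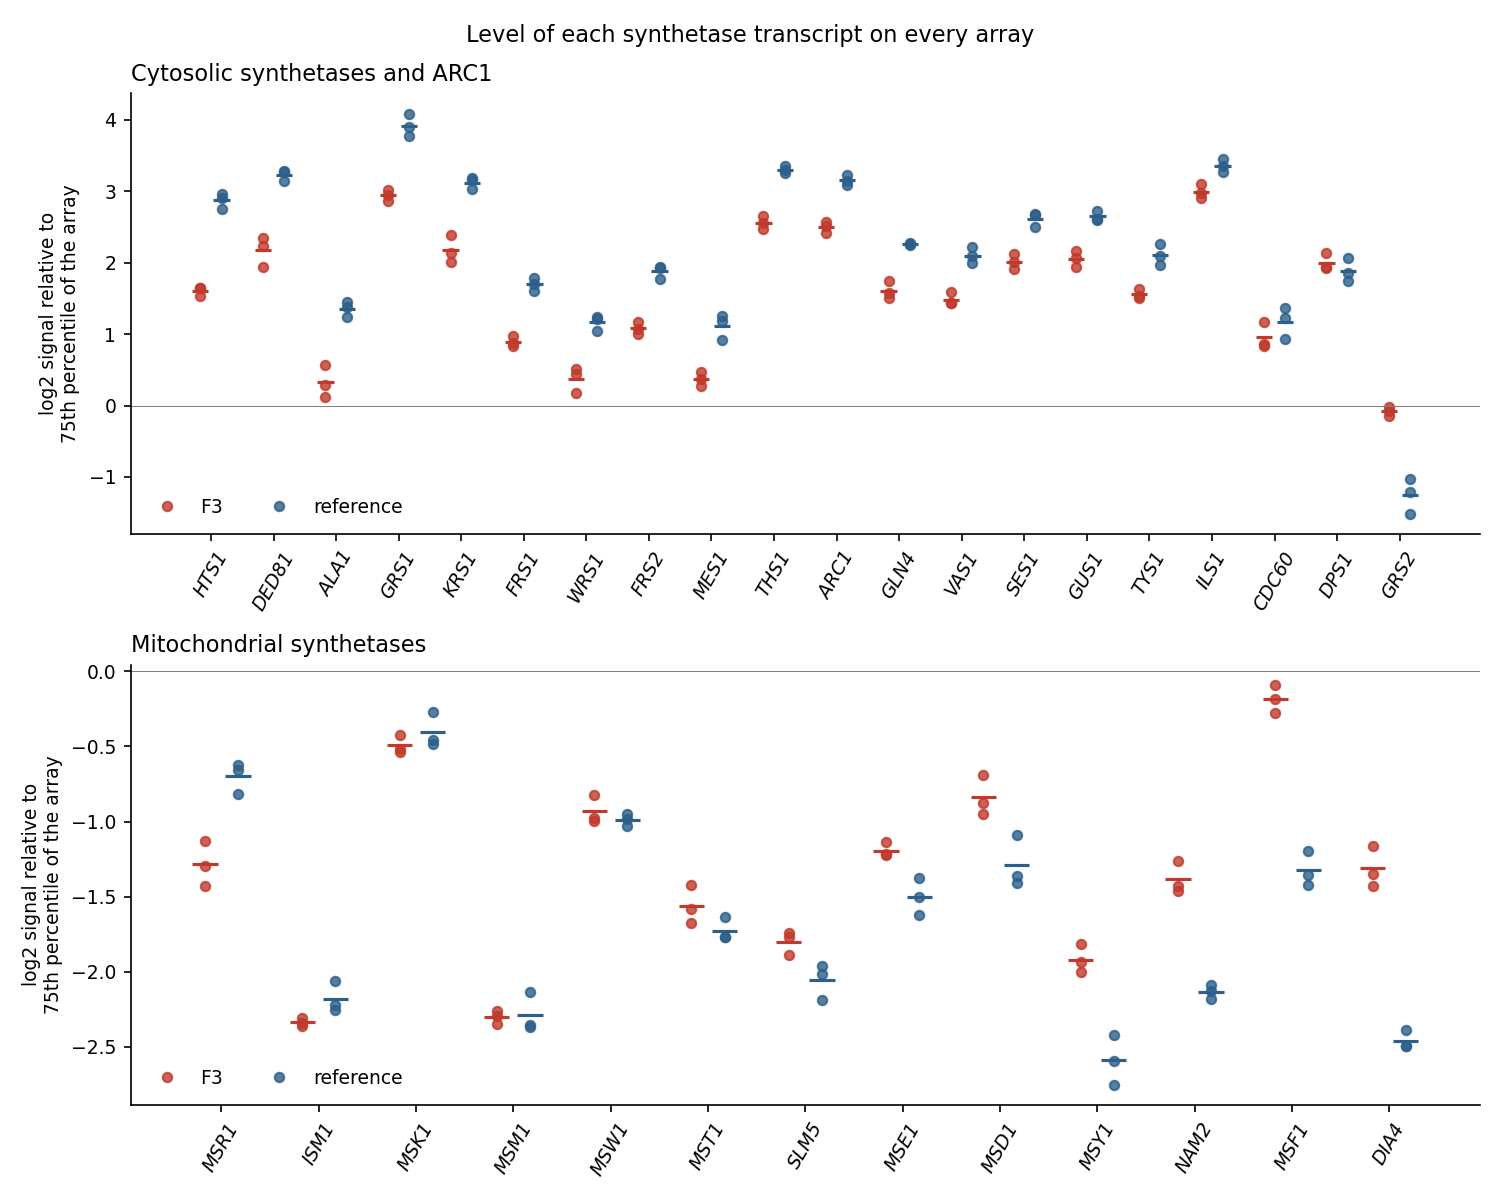
Level of each member on every array (vertical axis: log2 processed signal minus the array's 75th percentile), with cytosolic members above and mitochondrial members below, ordered by their difference. Points are arrays, red for F3 and blue for the reference, and bars are means of 3 arrays; the F3 points lie below the reference points for HTS1 through ILS1, MSR1 and ISM1, and above them for GRS2 and for SLM5 through DIA4.

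HTS1 (YPR033C), the histidyl-tRNA synthetase of both compartments, was the cytosolic member with the lowest difference. Its level was 1.53, 1.64 and 1.64 in F3 and 2.90, 2.96 and 2.76 in the reference. Every F3 array lay more than 1 log2 unit below every reference array. The fold was 2.41 (F3 lower, log2 difference of -1.27 with an SE of 0.08, adjusted p = 1.3e-06).

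DED81 (YHR019C), the cytosolic asparaginyl-tRNA synthetase, had levels of 1.95, 2.34 and 2.24 in F3 and 3.29, 3.27 and 3.14 in the reference. The groups did not overlap, and DED81 was 2.08-fold lower (-1.06 ± 0.11 SE, adjusted p = 2.6e-05). ALA1 (YOR335C), the alanyl-tRNA synthetase of both compartments, was at 0.29, 0.11 and 0.58 in F3 and at 1.38, 1.46 and 1.24 in the reference. Its F3 arrays were the most spread among the members (SD 0.23), but all lay below the reference arrays, and ALA1 was 2.05-fold lower (-1.03 ± 0.12 SE, adjusted p = 6.1e-05). GRS1 (YBR121C), the main glycyl-tRNA synthetase, which also serves both compartments, was at 2.86, 3.02 and 2.95 in F3 and at 3.90, 4.09 and 3.78 in the reference. This is a difference just under 2-fold (1.97-fold lower, -0.98 ± 0.10 SE, adjusted p = 1.9e-05).

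With VAS1 (YGR094W), the valyl-tRNA synthetase, the members listed here as serving both compartments number 4. All 4 fell, with differences between -1.27 and -0.62 and a median of -1.01. VAS1 was the least lowered of them, at 1.43, 1.43 and 1.59 in F3 and 1.99, 2.09 and 2.22 in the reference (-0.62 ± 0.09 SE, adjusted p = 2.1e-04). The array has 1 probe a gene, so transcripts for the mitochondrial and the cytosolic product of a gene were not measured apart. The other 14 cytosolic synthetases, GRS2 left aside, had a median of -0.70, and 12 of them fell.

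KRS1 (YDR037W), the lysyl-tRNA synthetase, fell to 2.13, 2.02 and 2.39 in F3, against 3.18, 3.15 and 3.03 in the reference (-0.94 ± 0.11 SE, adjusted p = 4.3e-05). THS1 (YIL078W), for threonine, was at 2.47, 2.56 and 2.66 in F3 and 3.36, 3.29 and 3.26 in the reference (-0.74 ± 0.08 SE). WRS1 (YOL097C), for tryptophan, was at 0.44, 0.18 and 0.51 in F3 and 1.05, 1.25 and 1.21 in the reference (-0.79 ± 0.11 SE). In each of these 3 genes all F3 arrays lay below all reference arrays. GLN4 (YOR168W, glutamine), SES1 (YDR023W, serine) and TYS1 (YGR185C, tyrosine) fell by 0.65, 0.60 and 0.55 on the log2 scale, with SEs between 0.08 and 0.09, again without overlap.

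By fold class, the 8 cytosolic class I enzymes had a median difference of -0.60, with 7 called lower. The 11 of class II had a median of -0.81, with 9 called lower and 1 higher. All 3 cytosolic genes that fell at least 2-fold, HTS1, DED81 and ALA1, encode class II enzymes. Among mitochondrial members the 7 of class I had a median of 0.05 and the 6 of class II a median of 0.35. The difference between the classes was not tested.

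The phenylalanyl-tRNA synthetase of the cytosol is made of 2 kinds of subunit from separate genes on different chromosomes, and their transcripts moved alike. FRS2 (YFL022C, the alpha subunit) was at 1.01, 1.18 and 1.08 in F3 and 1.77, 1.93 and 1.93 in the reference. FRS1 (YLR060W, the beta subunit) was at 0.87, 0.83 and 0.97 in F3 and 1.60, 1.78 and 1.71 in the reference. FRS2 differed by -0.79 ± 0.08 SE and FRS1 by -0.81 ± 0.08 SE (adjusted p = 2.7e-05 and 2.0e-05). The change of the FRS1 to FRS2 ratio was -0.01 ± 0.08 (SE, log2, n = 3 arrays each), and the arrays of the strains overlapped. WRS1, for tryptophan, differed by as much (-0.79 ± 0.11 SE), so the likeness is not particular to these subunits.

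Arc1 is a tRNA-binding cofactor that holds the methionyl- and glutamyl-tRNA synthetases in a complex in the cytosol. ARC1 (YGL105W) was at 2.52, 2.41 and 2.57 in F3 and 3.09, 3.14 and 3.23 in the reference (-0.65 ± 0.08 SE, adjusted p = 6.9e-05). MES1 (YGR264C), for methionine, was at 0.38, 0.28 and 0.47 in F3 and 1.25, 1.18 and 0.93 in the reference (-0.75 ± 0.10 SE, adjusted p = 1.6e-04). GUS1 (YGL245W), for glutamate, was at 2.07, 1.93 and 2.16 in F3 and 2.60, 2.61 and 2.73 in the reference (-0.59 ± 0.09 SE, adjusted p = 2.1e-04). The transcripts of the 3 partners fell by similar amounts, near the cytosolic median of -0.70. Relative to ARC1, the change was -0.09 ± 0.14 for MES1, where the arrays overlapped, and 0.06 ± 0.02 for GUS1, where they did not (SE, log2).

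Among the other cytosolic members, ILS1 (YBL076C), the isoleucyl-tRNA synthetase, had the smallest called decrease. Its lowest and median levels were 2.91 and 2.98 in F3, against 3.28 and 3.36 in the reference, with the highest F3 array below the lowest reference array (-0.36 ± 0.08 SE, adjusted p = 0.0035). This call was lost with quantile normalization (-0.14, adjusted p = 0.124) and with the authors' deposited values (-0.11, adjusted p = 0.200).

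Neither CDC60 nor DPS1 was called. CDC60 (YPL160W), the leucyl-tRNA synthetase, was at 0.86, 0.84 and 1.17 in F3 and 1.36, 1.23 and 0.94 in the reference, and the strains overlapped. Its difference of -0.22 ± 0.13 SE (adjusted p = 0.15) was called lower when reference replicate 3 was left out (-0.34, adjusted p = 0.0317). DPS1 (YLL018C), the aspartyl-tRNA synthetase, was at 1.94, 1.92 and 2.13 in F3 and 2.07, 1.86 and 1.74 in the reference, also with overlap (0.11 ± 0.11 SE, adjusted p = 0.37).

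GRS2 (YPR081C), a paralog of GRS1 that is dispensable in ordinary growth, went the other way. It was at -0.02, -0.08 and -0.15 in F3 and at -1.03, -1.21 and -1.51 in the reference. All F3 arrays were above all reference arrays, and GRS2 was 2.25-fold higher in F3 (1.17 ± 0.12 SE, adjusted p = 2.5e-05). GRS2 was the only one of the 20 cytosolic members called higher. Set against GRS1 on the same array, GRS2 rose 4.44-fold (log2 change of the ratio 2.15 ± 0.14 SE, n = 3 arrays each). Probe sequences were not used here, so any shared hybridisation between these paralogs could not be examined.

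**Figure D2:**
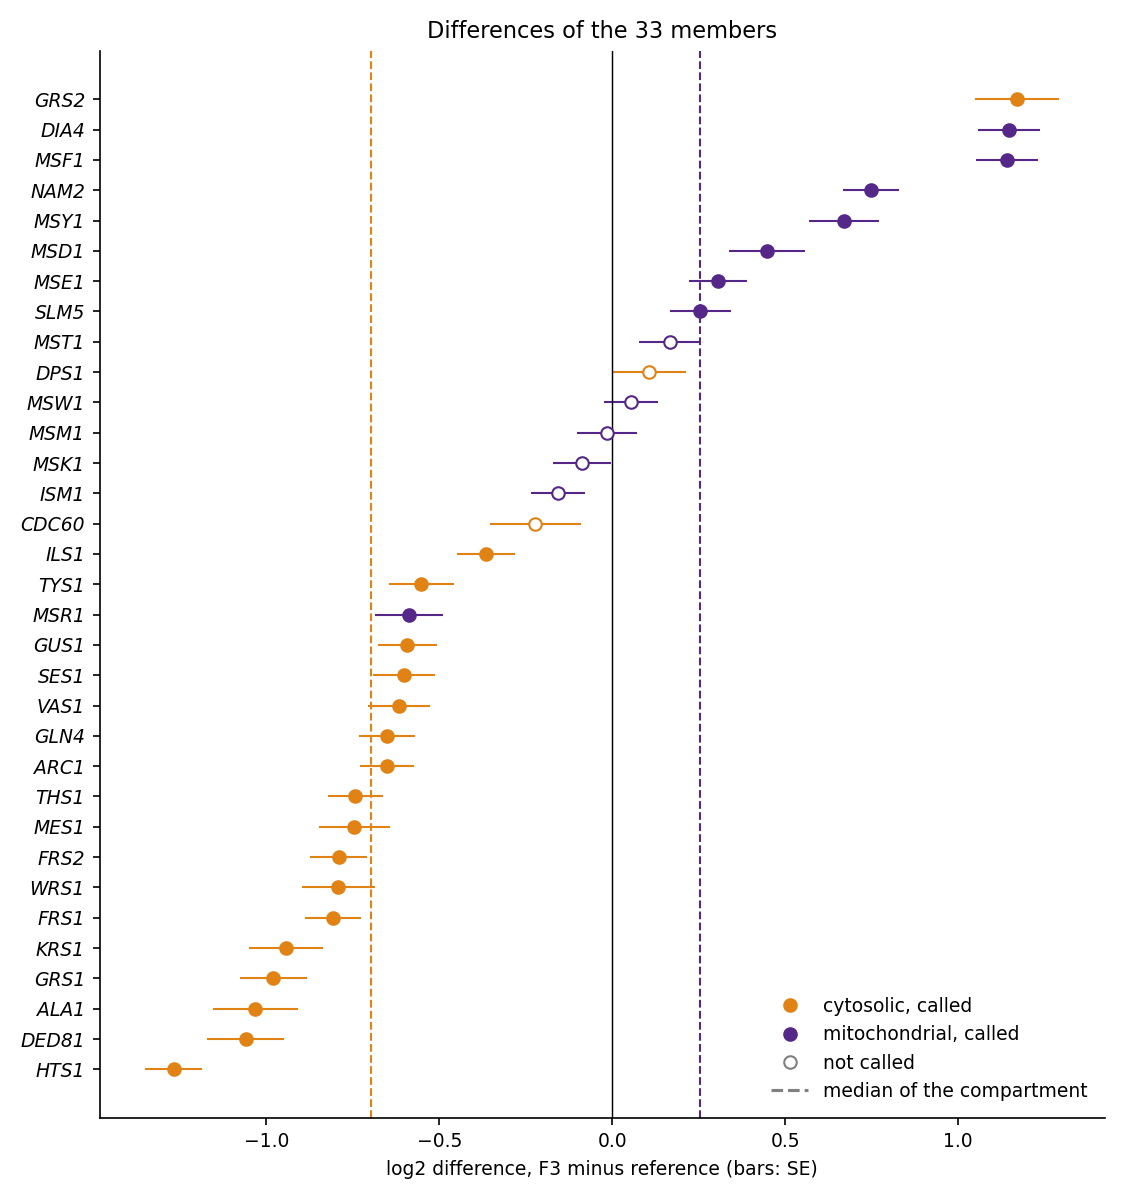
Log2 difference, F3 minus reference, of the 33 members with its SE (horizontal axis). Orange marks cytosolic and purple mitochondrial members, filled points were called at an adjusted p below 0.05, and dashed lines mark the medians of -0.70 and 0.25; GRS2 stands among the highest mitochondrial members and MSR1 among the cytosolic ones.

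DIA4 (YHR011W), the mitochondrial seryl-tRNA synthetase, had the largest increase among the mitochondrial members. Its level was -1.35, -1.16 and -1.43 in F3 and -2.50, -2.49 and -2.39 in the reference. The F3 arrays all lay well above the reference arrays, and DIA4 was 2.22-fold higher (1.15 ± 0.09 SE, adjusted p = 3.8e-06). MSF1 (YPR047W), the mitochondrial phenylalanyl-tRNA synthetase, a single chain unlike its cytosolic counterpart, was at -0.09, -0.18 and -0.28 in F3 and -1.36, -1.42 and -1.20 in the reference. It was 2.21-fold higher without overlap (1.14 ± 0.09 SE, adjusted p = 4.0e-06).

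NAM2 (YLR382C), the mitochondrial leucyl-tRNA synthetase, is also known to take part in splicing introns of mitochondrial transcripts. It was at -1.43, -1.26 and -1.46 in F3 and -2.18, -2.09 and -2.13 in the reference (0.75 ± 0.08 SE, adjusted p = 3.3e-05). MSY1 (YPL097W), for tyrosine, was at -1.94, -1.81 and -2.00 in F3 and -2.42, -2.60 and -2.75 in the reference (0.67 ± 0.10 SE, adjusted p = 2.9e-04). Both genes rose by more than 1.5-fold, and in both the strains did not overlap.

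Smaller increases were called for 3 further genes. MSD1 (YPL104W), for aspartate, was at -0.95, -0.69 and -0.88 in F3 and -1.09, -1.36 and -1.41 in the reference (0.45 ± 0.11 SE, adjusted p = 0.0050). MSE1 (YOL033W), for glutamate, was at -1.22, -1.14 and -1.22 in F3 and -1.50, -1.62 and -1.38 in the reference (0.31 ± 0.09 SE, adjusted p = 0.0094). SLM5 (YCR024C), for asparagine, was at -1.77, -1.74 and -1.89 in F3 and -2.19, -2.01 and -1.96 in the reference (0.25 ± 0.09 SE, adjusted p = 0.025). The strains did not overlap in these genes, but the call of SLM5 was lost when F3 replicate 1, F3 replicate 2 or reference replicate 1 was left out (adjusted p = 0.0737, 0.0669 and 0.0713), and with the replicate number as a block (adjusted p = 0.0521).

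MSR1 (YHR091C), the mitochondrial arginyl-tRNA synthetase, was the only mitochondrial member called lower. It was at -1.43, -1.13 and -1.30 in F3 and -0.66, -0.62 and -0.81 in the reference. The strains did not overlap, and its difference of -0.59 ± 0.10 SE (adjusted p = 5.4e-04) lay among those of the cytosolic enzymes.

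The 5 mitochondrial members that were not called had differences between -0.16 and 0.17. MSW1 (YDR268W, tryptophan) differed by 0.05 ± 0.08 SE, MSM1 (YGR171C, methionine) by -0.01 ± 0.09 SE and MSK1 (YNL073W, lysine) by -0.09 ± 0.08 SE, and in each the arrays of the strains overlapped. MST1 (YKL194C, threonine) was at -1.58, -1.42 and -1.67 in F3 and -1.64, -1.77 and -1.77 in the reference (0.17 ± 0.09 SE, adjusted p = 0.12). ISM1 (YPL040C, isoleucine) was at -2.34, -2.31 and -2.36 in F3 and -2.22, -2.06 and -2.25 in the reference (-0.16 ± 0.08 SE, adjusted p = 0.097). ISM1 was thus lower on every F3 array without passing the test, and it was called lower with quantile normalization (-0.19, adjusted p = 0.0483) and with normexp background correction (-0.31, adjusted p = 0.0073). Without overlap, 17 cytosolic members were lower and 1 higher, and 2 mitochondrial members were lower and 7 higher, where 82.4% of all tested genes did not overlap, 39.5% lower and 43.0% higher.

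Enzymes for the same amino acid could be set against each other on every array, a measure in which a scaling factor common to the array cancels. Such pairs existed for 13 amino acids and gave 14 ratios, because both cytosolic phenylalanine subunits were set against MSF1. The arginine pair used YDR341C, the cytosolic arginyl-tRNA synthetase, which is not among the 33 members. In 14 of 14 ratios the cytosolic transcript was lower relative to its mitochondrial counterpart in F3, with a median log2 change of -0.90, and in 13 of them the arrays of the strains did not overlap. These ratios restate the differences given above on a common scale and add no independent measurement. The share of ratios without overlap among other gene pairs was not computed. Of all tested single genes, 82.4% did not overlap, so the count of 13 cannot be read as particular to these pairs.

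The change was widest for phenylalanine. Relative to its reference mean, the FRS1 to MSF1 ratio was -2.06, -2.01 and -1.77 in F3 and -0.06, 0.18 and -0.12 in the reference (log2). The ratio was thus 3.86-fold lower in F3, a change of -1.95 ± 0.13 (SE, n = 3 arrays each), and that of FRS2 to MSF1 changed by -1.93 ± 0.12. The SES1 to DIA4 ratio, for serine, was -1.82, -1.79 and -1.64 in F3 and 0.09, 0.11 and -0.19 in the reference. That is 3.36-fold lower in F3 (-1.75 ± 0.11), with both genes called and in opposite directions.

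Asparagine (DED81 to SLM5, -1.31 ± 0.17), tyrosine (TYS1 to MSY1, -1.22 ± 0.16) and leucine (CDC60 to NAM2, -0.97 ± 0.21) came next in size. For leucine the shift came mainly from the mitochondrial gene, since CDC60 was not called and NAM2 rose. For threonine, glutamate, lysine, tryptophan and methionine the ratios changed by between -0.91 and -0.73. In the lysine, tryptophan, threonine and methionine pairs the mitochondrial gene was not called, and the cytosolic gene fell.

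At the narrow end, the arginine ratio (YDR341C to MSR1) was -0.37 on all 3 F3 arrays, against -0.05, 0.02 and 0.04 in the reference (-0.37 ± 0.03). Here both transcripts fell, the cytosolic one further. The aspartate ratio (DPS1 to MSD1) changed by -0.34 ± 0.12, with the mitochondrial gene higher and the cytosolic one not called. The isoleucine ratio (ILS1 to ISM1) was -0.22, -0.32 and -0.08 in F3 and 0.13, -0.12 and -0.01 in the reference. These overlapped, and the change of -0.21 ± 0.10 took the opposite sign with quantile normalization (0.05), normexp background correction (0.02) and the authors' deposited values (0.08).

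**Figure D3:**
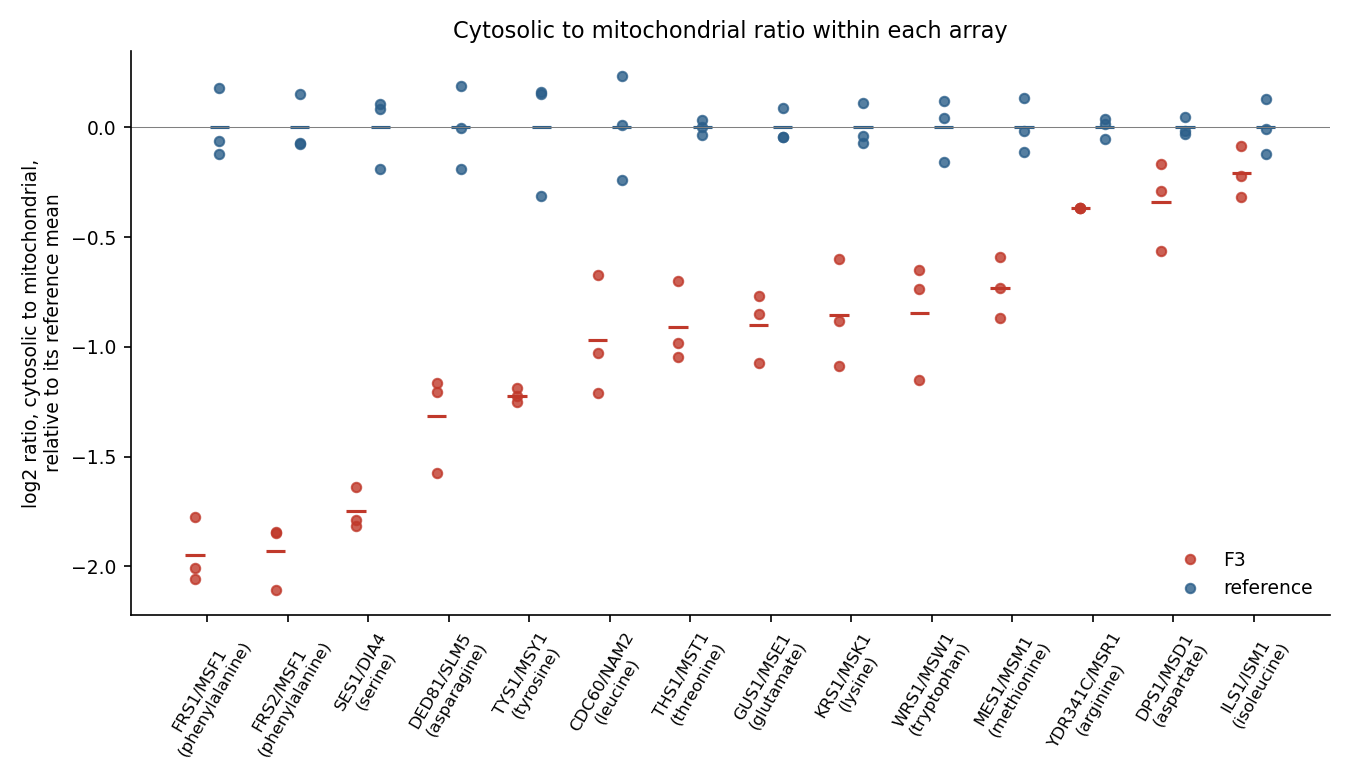
Log2 ratio of the cytosolic to the mitochondrial enzyme for the same amino acid on every array, relative to the mean of the reference arrays (vertical axis), for 14 pairs. Points are arrays, red for F3 and blue for the reference, and bars are means; the F3 mean lies below 0 in every pair, from -1.95 for FRS1 to MSF1 up to -0.21 for ILS1 to ISM1, the only pair whose arrays overlap.

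Of 4 synthetase genes outside the 33 members, 3 fell and 1 was not called, where 38.2% of all tested genes fell. With spike-in scaling 3 were called higher and 0 lower. YHR020W, the cytosolic prolyl-tRNA synthetase, fell further than any of the 33 members (-1.77 ± 0.10 SE, adjusted p = 4.1e-07). Its level averaged 0.76 in F3 and 2.53 in the reference, and with spike-in scaling it was the only synthetase gene below 0 (-0.06, adjusted p = 0.853). CRS1 (YNL247W), the cysteinyl-tRNA synthetase, fell by 1.11 (SE 0.08, adjusted p = 2.0e-06) and YDR341C by 0.96 (SE 0.10, adjusted p = 2.0e-05). AIM10 (YER087W), which resembles a mitochondrial prolyl-tRNA synthetase, differed by -0.03 ± 0.08 SE (adjusted p = 0.69).

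Partners of the mitochondrial synthetases were measured as a list of 7. Of these 5 rose, 1 fell and 1 was not called (median 0.42), where 41.5% of all tested genes rose. With spike-in scaling all 7 were called higher, MTO1 included. FMT1, the formyltransferase that modifies the initiator methionyl-tRNA, rose by 2.40 (SE 0.14, adjusted p = 5.9e-07), with a mean level of -4.43 in F3 and -6.82 in the reference, well above background on all 6 arrays. In mitochondria glutaminyl-tRNA is made from glutamyl-tRNA by an amidotransferase of 3 subunits. Its subunit PET112 rose by 1.00 (SE 0.07, adjusted p = 3.0e-06) and GTF1 by 0.31 (SE 0.08, adjusted p = 0.0066), while HER2 differed by -0.01 ± 0.09 SE (adjusted p = 0.92). MSS1, which modifies the wobble base of mitochondrial tRNAs together with the product of MTO1, rose by 0.70 (SE 0.10), whereas MTO1 was the member that fell (-0.67 ± 0.12 SE, adjusted p = 6.5e-04).

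Genes that process and modify tRNA were mostly lower in F3, where 38.2% of all tested genes were called lower. Of 49 tRNA modification genes 45 fell, 1 rose and 3 were not called, with a median of -1.75, whereas with spike-in scaling 12 were called higher and 10 lower. The methyltransferases TRM13, TRM1 and TRM11 had the lowest differences (-3.12 ± 0.14, -2.99 ± 0.12 and -2.67 ± 0.12 SE), and RIB2, a pseudouridine synthase that also acts in riboflavin synthesis, was the one that rose (0.30 ± 0.08 SE, adjusted p = 0.0081). Of 23 genes of tRNA processing and export 17 fell, 4 rose and 2 were not called, with a median of -0.73, whereas with spike-in scaling 17 were called higher and 0 lower. LHP1, the yeast La protein, fell by 2.02 (SE 0.08), RPP1, a subunit of nuclear RNase P, by 1.85 (SE 0.10), and TRZ1, the tRNA 3′ endonuclease, by 1.78 (SE 0.09). Those that rose furthest were RPR2, another subunit of nuclear RNase P (1.14 ± 0.07 SE), RPM2, the protein of mitochondrial RNase P (0.90 ± 0.09), and the exportin MSN5 (0.57 ± 0.08).

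The eEF1 complex delivers charged tRNA to the ribosome. Of its 5 genes 4 fell (median -0.77), where 38.2% of all tested genes fell. TEF4, a gamma subunit, fell by 1.26 (SE 0.09), EFB1, the nucleotide exchange factor, by 1.09 (SE 0.08), and TEF1, one of a pair of near-identical eEF1A genes whose signals may not be separable, by 0.77 (SE 0.16, adjusted p = 0.0019). CAM1, the other gamma subunit, rose by 0.23 (SE 0.07, adjusted p = 0.015). In the sensing of uncharged tRNA, GCN4 fell by 1.86 (SE 0.08, adjusted p = 1.1e-07), YIH1, an inhibitor of that response, by 0.92 (SE 0.11), and GCN20 by 0.39 (SE 0.07). GCN1, which acts with Gcn20 on the kinase, rose by 0.54 (SE 0.10, adjusted p = 0.0012). GCN4 is controlled mainly in translation, which these arrays do not measure.

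The direction of these eEF1 and sensing genes also depends on the scaling, since with spike-in scaling 4 of 5 in each list were called higher and 0 lower.

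Ribosomal protein genes were listed by compartment for comparison. Of 137 cytosolic ribosomal protein genes 128 fell and 1 rose (median -0.92), where 38.2% of all tested genes fell. Of 67 genes named as mitochondrial ribosomal proteins 31 rose and 15 fell (median 0.11). These are shares of 46.3% and 22.4%, against 41.5% and 38.2% of all tested genes, so the share that rose lay near that of all genes. With spike-in scaling 93 cytosolic and 66 mitochondrial ones were called higher and 0 lower. The synthetase medians given above were -0.70 for the cytosol and 0.25 for mitochondria. Whether the synthetases differ from the ribosomal proteins of the same compartment was not tested.

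**Figure D4:**
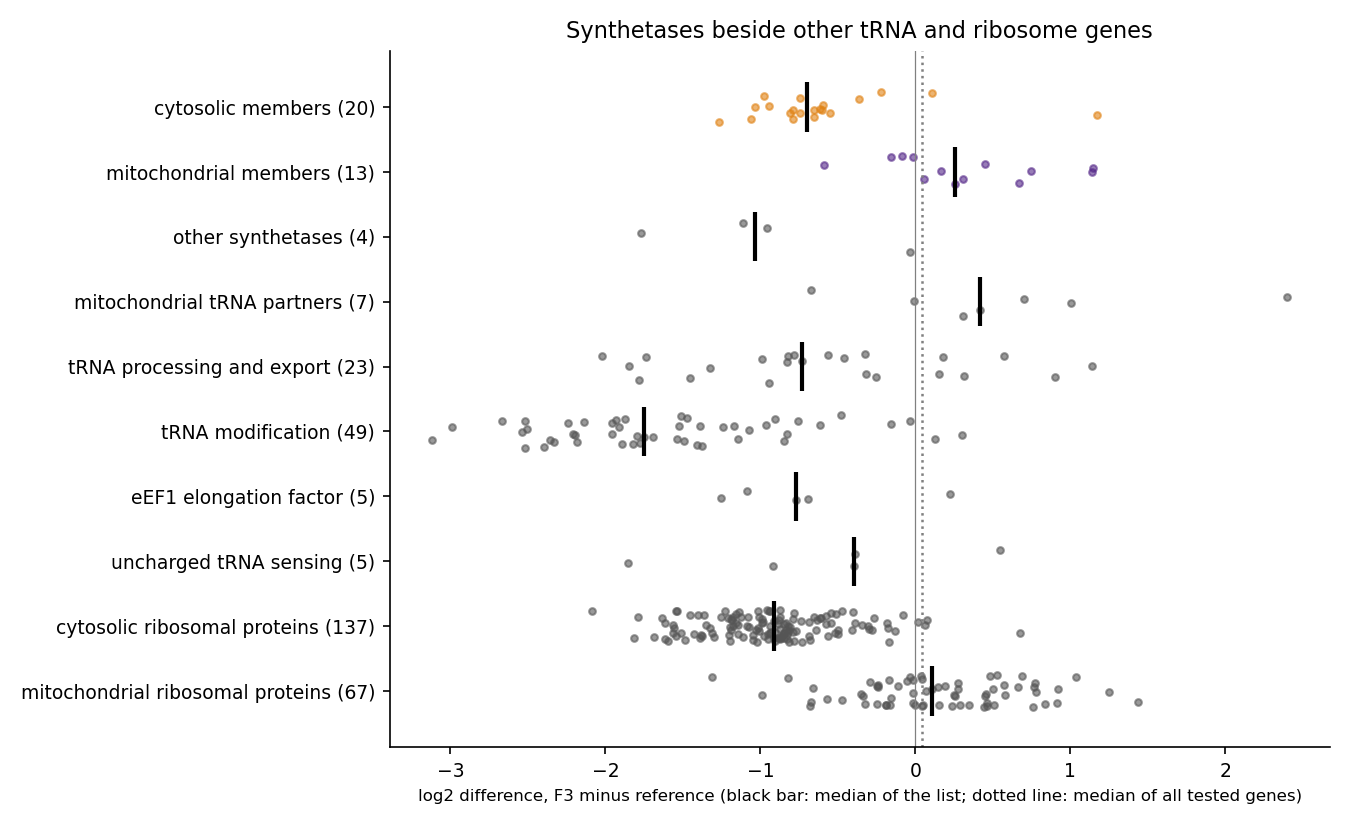
Log2 difference, F3 minus reference (horizontal axis), of each tested gene in the synthetase groups and in related lists, with the number of genes in brackets. Each point is a gene, black bars are list medians and the dotted line is the median of all tested genes (0.05); medians run from -1.75 for tRNA modification to 0.42 for mitochondrial tRNA partners.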

How the data were processed

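Each of the 6 samples is 1 one-colour array (0.2 µg of RNA labelled with Cy3, per the labels). Per the file headers, Feature Extraction 10.7.3.1 made the authors' spot values; version 9.1 appears in the submitters' processing notes. The deposited processed signal is an intensity corrected for background within the array. The software's flags (well above background, saturated, outlier, spot type) are other values, as deposited. The authors' deposited table holds log2 values centred on each probe's median, which followed the scanner values (r between 0.9909 and 0.9953, slopes between 0.9819 and 0.9929, column medians between -0.0155 and 0.0111); its scaling between arrays stays unknown.

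The log2 signals of the 2 spots of each probe were averaged and the array's 75th percentile subtracted. Genes well above background on at least 3 arrays (5948 of 6256) entered a two-sided test by lmFit and eBayes (limma 3.58.1, R 4.3.3). SEs are those of this fit; for ratios they come from the spread over arrays. The spots of a member differed with an SD between 0.02 and 0.09. The number of arrays, 3 per strain, limits the precision. Nothing in the labels ties replicates of different strains to each other. Of the gene names, 5756 came from the RefSeq table of assembly R64 by locus tag and 23 by synonym, and 477 were kept from the array files; the headers name an older build, so no coordinates are given. Probe and protein sequences were not used here.

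The members and lists were chosen with earlier results of these data known. Named genes are the members, the other synthetases, and up to 3 called genes each way per list; GTF1, HER2 and ADH2 were named after their values were seen. The pattern for ribosomal proteins was corrected after a first run, since it had taken in RPP1. The normexp alternative used the median spot signal, as the files hold no mean signal. Alternatives were quantile, median and spike-in scaling, normexp, the deposited table, other filters, a replicate block, slide as a random block and leaving out each array. The fit was tested on simulated data.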

Additional observations from a re-analysis of the deposited data

How the results depend on the processing

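Of the 15 alternatives, spike-in scaling decided directions. It gave 0 cytosolic members lower and 19 higher (median 1.01), and 0 mitochondrial members lower and 13 higher (median 1.97), by limma with an SE of 0.30 for every gene. Under it the sign turned for ALA1 (0.68), CDC60 (1.49), DED81 (0.65), FRS1 (0.90), FRS2 (0.92), GRS1 (0.73), GLN4 (1.06), GUS1 (1.12), HTS1 (0.44), ILS1 (1.35), KRS1 (0.77), MES1 (0.96), THS1 (0.97), TYS1 (1.16), VAS1 (1.09), WRS1 (0.92), SES1 (1.11), ARC1 (1.06), MSK1 (1.62), MSM1 (1.70), MSR1 (1.12), ISM1 (1.55), YDR341C (0.75), CRS1 (0.60) and AIM10 (1.68). Over all genes it called 5092 higher and 255 lower (95.2% higher, against 52.0% by the main scaling). The SD of the differences of the 7 spike-in probes was 0.22. That SD leaves out the spread of the spike-in mean between reference arrays (-2.83 to -2.06 relative to the 75th percentile), which all genes share. The cytosolic median was -0.57 with quantile normalization and -0.56 with the authors' deposited values, and 2 mitochondrial members were lower with quantile normalization and with normexp. The ratio of ILS1 to ISM1 changed by 0.054 with quantile normalization, 0.020 with normexp and 0.075 with the deposited values. Leaving out one array at a time gave 17 to 18 cytosolic members lower and 1 higher, 6 to 7 mitochondrial members higher and 1 lower, and medians between -0.75 and -0.67 (cytosolic) and between 0.21 and 0.30 (mitochondrial). With the replicate number as a block, SLM5 lost its call (0.25, adjusted p = 0.0521) and the other 32 members kept direction and call. Deviations of same-numbered arrays correlated with r of -0.15, 0.08 and -0.25. With 3 arrays per strain, these values cannot show whether same-numbered arrays belong together. With the slide as a random block, median scaling, no filter or the stricter filter, all 33 members kept direction and call. No member was near background. The compartments differed in signal, with mean levels on the reference arrays of 2.21, 2.23 and 2.12 for cytosolic members and -1.62, -1.69 and -1.68 for mitochondrial ones. The 75th percentile signal lay between 8314 and 9534 units on the F3 arrays and between 2791 and 4973 on the reference arrays. Whether signal level affected the differences was not tested.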

Other observations

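DED81 and YHR020W, the cytosolic asparaginyl- and prolyl-tRNA synthetase genes, are divergently transcribed neighbours in the R64 gene order, and both fell (-1.06 ± 0.11 and -1.77 ± 0.10 SE). SES1 and its divergent neighbour were called in opposite directions: SES1 fell by 0.60 on the log2 scale, and ATG31, an autophagy gene, rose by 1.78 (SE 0.09).

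KRS1 lies beside EHD3, which in turn lies beside ARO3. EHD3 and ARO3 were not well above background on any of the 3 F3 arrays and were so on all 3 reference arrays, while KRS1 was well above background on all 6, with processed signals of 41779, 36718 and 43605 intensity units in F3 and 25373, 43509 and 40690 in the reference. The neighbours named here were picked out after their values were seen, and nothing about neighbouring genes in general was tested.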
